A study of Mus musculus with 2 samples.

Results

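The genes described here are the interleukin-1 (IL-1) family ligands and receptors of skin wounds, in wild-type (WT) mice and in mice without the transcription factor PU.1. They were taken by gene symbol from the deposited expression values, and all 9 were listed among 24346 genes: the ligands Il1a, Il1b, Il18 and Il33, the antagonist Il1rn, the receptor genes Il1r1, Il1rap and Il1rl1, and the decoy receptor Il1r2. PU.1, encoded by Spi1, is needed for the development of myeloid cells, and the PU.1-/- line is described by the study as lacking neutrophils, macrophages, mast cells and T cells. Both groups were C57BL/6J neonates, WT or PU.1-/- littermates, whose dorsal skin was wounded at the age of 1 day and harvested 24 h later. The wounds were full-thickness incisions of 1 cm according to the methods, whereas the design text calls them excisional, and no other treatment is stated. The mutant is a whole-animal knockout, and the whole wound was sequenced, with its skin cells and the blood cells in it. There was 1 bulk mRNA library per genotype, the number of pups pooled in it is not stated, and no spread between animals or p-value can be given.

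IL-1 alpha and IL-1 beta both bind the type 1 receptor (Il1r1), which recruits the accessory protein (Il1rap) and signals through MyD88 to NF-kB. The antagonist IL-1Ra (Il1rn) occupies the same receptor without signalling, and the type 2 receptor (Il1r2) binds IL-1 but lacks a signalling domain, so that it acts as a decoy. IL-33 is an alarmin of epithelial, endothelial and stromal cells that is recognised by ST2 (Il1rl1) together with the same accessory protein, and IL-18 is the related activator of lymphocytes. In skin, IL-1 alpha is stored in keratinocytes and released on injury, while IL-1 beta is made by activated myeloid cells as a precursor that has to be cleaved.

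Levels are given in FPKM, which are fragments scaled to transcript length and to the depth of the library, so that genes can be compared by their level. Whole-read steps in the values of low genes put the depth at 1.38e+07 fragments for the WT library and 1.58e+07 for the PU.1-/- library. Read numbers estimated from this depth gave 95% intervals (exact Clopper-Pearson for ratios, Poisson for levels) that cover counting error only. Values below 0.1 FPKM were raised to 0.1, and genes whose ratio between the libraries then reached 2 are called lower or higher. Spi1 itself had 35.4 FPKM in WT against 1.45 in PU.1-/-, a ratio of 24.3 (interval 17.6 to 34.4). The libraries also differed in Uty, Kdm5d, Ddx3y and Eif2s3y, genes of the Y chromosome, which summed to 65.8 FPKM in WT and were all listed at 0 in PU.1-/-. Genotype and sex of the pups therefore cannot be told apart in any ratio below.

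Of the 9 genes, 3 were at least 2-fold lower in the PU.1-/- wound, namely Il1b, Il1r2 and Il1rn, and none was at least 2-fold higher. Over all listed genes, 4.34% were lower and 2.32% higher by the same rule. Among the 7256 genes that reached 10 FPKM in either library, a group to which all 9 belong, 2.88% were lower and 0.882% higher. On the log2 scale, the median ratio of PU.1-/- over WT was −0.55 for the 9 genes, −0.01 for the 7256 genes and 0 for all listed genes. The 3 lower genes encode an agonist, its antagonist and its decoy receptor, whereas the signalling receptor genes Il1r1, Il1rap and Il1rl1 stayed within a ratio of 2. The summed markers of macrophages (749 and 5.79 FPKM), mast cells (747 and 9.78 FPKM) and neutrophils (12589 and 3676 FPKM) were lower in PU.1-/- as well. Most of the neutrophil sum came from S100a8 and S100a9, which keratinocytes also express, so it is a poor measure of neutrophils. The part of these cells in the levels of Il1b, Il1r2 and Il1rn was not tested. Fewer cells of a type and less RNA per cell cannot be told apart in bulk tissue. Together the 9 genes made up 541 FPKM in WT against 336 in PU.1-/-.

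**Figure D1:**
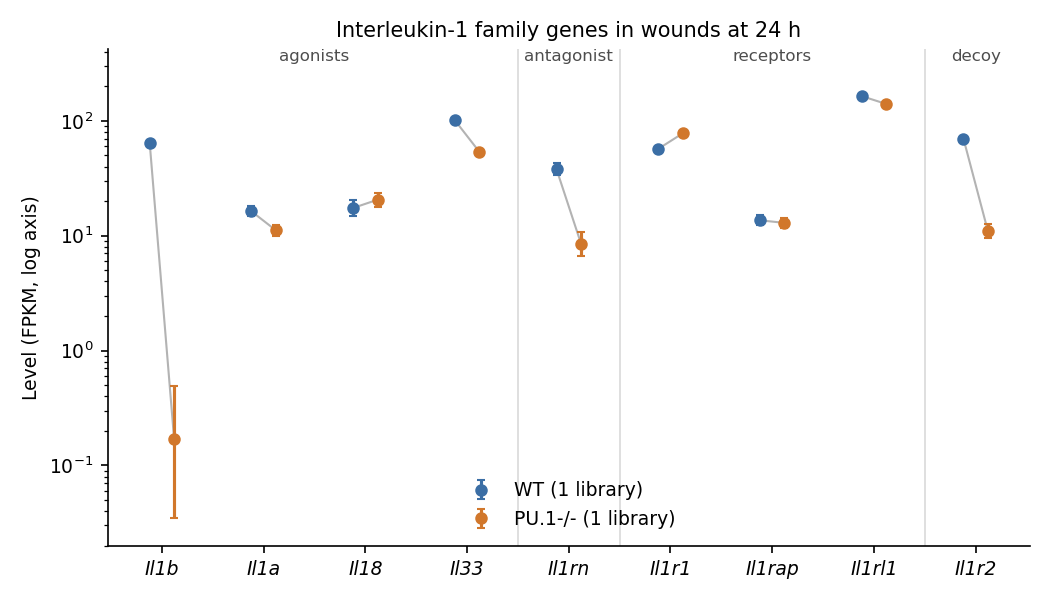
Level of each of the 9 genes in FPKM (log axis) in the WT and the PU.1-/- library, 1 library each, with bars for the 95% Poisson counting interval, grouped by role. Il1b spans the widest gap, from 63.9 to 0.169 FPKM, while Il1rap and Il18 have overlapping intervals.

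Il1b showed the widest difference of the family. The WT wound showed 63.9 FPKM and the PU.1-/- wound 0.169 FPKM, values that stand for 989 reads and 3 reads. The ratio was 379 (interval 129 to 1839), wide because of the 3 reads. Among the 7256 genes of at least 10 FPKM, it ranked 30 from the largest difference in this direction. The gene lies on chromosome 2 of mm10 (129364569 to 129371164), and its exons overlap those of the antisense gene Il1bos, which was listed at 0 in WT and at 0.159 FPKM in PU.1-/-. The kit marks strand, but whether the counting used it is not given in the sources used here, so the last few reads of Il1b cannot be assigned with certainty.

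Il1a, the other agonist of the same receptor, lies within 71.6 kb of the far end of Il1b on chromosome 2 (129299609 to 129310186) and was measured at 16.3 FPKM in WT against 11.1 in PU.1-/-. Its ratio of 1.46 (interval 1.26 to 1.70) was beyond counting error but below the threshold of 2. Exons of Il1a overlap those of Gm14023 on the other strand, which was listed at 0.0459 FPKM in WT and 0.280 in PU.1-/-. Il1a was the less abundant agonist in WT, with 20.3% of the summed FPKM of both genes, and accounted for 98.5% of that sum in PU.1-/-. The sum of both genes was 80.2 FPKM in WT against 11.3 in PU.1-/-. Nearly all of the agonist mRNA that was measured in the PU.1-/- wound was thus that of Il1a.

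The sequences before a transcript start of each gene are shown because these neighbours had such different ratios in a mutant of a DNA-binding factor. They are the 250 bases upstream of a RefSeq transcript start on GRCm38, the assembly of mm10, at chr2:129371140-129371389 for Il1b and at chr2:129309973-129310222 for Il1a, both on the minus strand and written 5′ to 3′ along the gene. The gene spans given above are wider than these transcripts, so that the last 25 bases of the Il1b window and the last 214 of the Il1a window lie within the span. Capitals mark GGAA on either strand, the core that PU.1 shares with the other ETS family factors.
Il1b: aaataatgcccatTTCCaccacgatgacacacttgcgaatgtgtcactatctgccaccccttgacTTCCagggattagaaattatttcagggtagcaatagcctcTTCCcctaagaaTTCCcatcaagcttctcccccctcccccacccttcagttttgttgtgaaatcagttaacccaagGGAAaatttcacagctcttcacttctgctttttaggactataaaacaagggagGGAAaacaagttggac
Il1a: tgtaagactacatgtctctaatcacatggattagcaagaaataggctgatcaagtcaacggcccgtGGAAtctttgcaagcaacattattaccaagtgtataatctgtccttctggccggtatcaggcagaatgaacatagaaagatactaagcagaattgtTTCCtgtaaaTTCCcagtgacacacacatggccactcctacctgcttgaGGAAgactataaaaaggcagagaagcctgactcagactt

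The Il1b window holds 6 copies of the core and that of Il1a holds 4. This core is common, occurring in 93.4% of 32851 windows of the same length, and in all 14 windows of the 9 genes. The longer motif GAGGAA, which contains the core and is closer to the sequence that PU.1 prefers, was found on 1 strand or the other in 23.3% of all windows. Among the 14 windows it occurred in 1, that of Il1a, where it begins at position -41 from the transcript start. The NF-kB motif was found in 3.90% of all windows and in 1 of the 14, the downstream window of Il1r1. These are matches of letters in a short window, and binding of a factor was not measured.

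The alarmin Il33, on chromosome 19 (29925113 to 29960718), was the most abundant of the 5 chosen ligand and antagonist genes in both libraries. It had 101 FPKM in WT against 53.8 in PU.1-/-, a ratio of 1.88 (interval 1.78 to 1.99) that lay just under the threshold. Scaling both libraries to the same sum of fibroblast and keratinocyte markers brought the ratio of Il33 to 2.15 and thus past it. Il18, on chromosome 9 (50554700 to 50581841), had 17.4 FPKM in WT against 20.6 in PU.1-/-. The PU.1-/- over WT ratio of Il18 was 1.18 (interval 0.955 to 1.45), so a difference was not detectable at this depth. Il33 supplied 42.7% of the summed FPKM of the 5 ligand and antagonist genes in WT and 57.1% in PU.1-/-, and the share of Il18 was 7.37% and 21.8%. The sum of these 5 genes was 237 FPKM in WT against 94.2 in PU.1-/-.

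Il1rn, which encodes the antagonist IL-1Ra, lies on chromosome 2 (24336860 to 24351491). It had 37.8 FPKM in WT against 8.54 in PU.1-/-, a ratio of 4.43 (interval 3.42 to 5.86). The interval is based on the shortest RefSeq transcript and about 275 and 71 reads. The secreted and intracellular forms of the antagonist come from different starts of this gene and were not told apart in the gene-level value. The level of the antagonist relative to Il1b was 0.591 in WT (interval 0.516 to 0.677) and 50.6 in PU.1-/- (interval 16.6 to 251). Relative to Il1a, in contrast, it was 2.32 in WT (interval 1.98 to 2.71) and 0.767 in PU.1-/- (interval 0.584 to 0.995). By these FPKM the antagonist mRNA exceeded that of Il1a in WT only, and that of Il1b in PU.1-/- only. Such ratios within a library do not depend on the scaling between libraries, but they depend on the transcript lengths used. The RefSeq transcripts of Il1rn range from 728 to 2474 nt, and in PU.1-/- the level intervals of Il1rn and Il1a overlapped.

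Among the receptor genes, Il1rl1 had the highest level of all 9 genes in both wounds, with 164 FPKM in WT against 140 in PU.1-/-. The gene lies on chromosome 1 (40404864 to 40465418). The ratio was 1.17 (interval 1.10 to 1.24). Its transcripts encode the membrane receptor ST2L and a shorter soluble form, and the RefSeq transcripts range from 1216 to 5302 nt, so the gene-level FPKM does not show which form was present. Il33 relative to Il1rl1 was 0.616 in WT (interval 0.584 to 0.650) and 0.384 in PU.1-/- (interval 0.361 to 0.408).

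Il1r1, which encodes the signalling receptor for IL-1 and lies on chromosome 1 (40222480 to 40316201), had 57.0 FPKM in WT against 77.8 in PU.1-/-, a PU.1-/- over WT ratio of 1.36 (interval 1.31 to 1.42). It was the member with the highest such ratio, and ranked 411 from the highest among the 7256 genes. Its log2 ratio was 0.45, beside medians of 0.29 for the fibroblast, 0.20 for the keratinocyte, 0.22 for the endothelial and 0.71 for the skeletal muscle markers. Whether the amounts of these cells bear on the level of Il1r1 was not tested. With both libraries scaled to the same sum of fibroblast and keratinocyte markers, the ratio of Il1r1 was 1.19. Il1rap, on chromosome 16 (26581509 to 26730128), had 13.6 FPKM in WT against 12.9 in PU.1-/-, and its PU.1-/- over WT ratio of 0.949 (interval 0.825 to 1.09) included 1. Its exons overlap those of Gm20319 on the other strand, listed at 18.7 and 17.8 FPKM, so that the level of Il1rap is uncertain.

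The decoy receptor gene Il1r2, on chromosome 1 (40084692 to 40125230), was the second most different of the 9. It had 70.1 FPKM in WT, above Il1r1, and 11.03 FPKM in PU.1-/-. The ratio of 6.35 (interval 5.49 to 7.39) rests on about 1178 and 213 reads. Il1r2 over Il1r1 was 1.23 in WT (interval 1.15 to 1.31) and 0.142 in PU.1-/- (interval 0.123 to 0.163). The decoy therefore made up 55.1% of the summed FPKM of both IL-1 binding receptors in WT and 12.4% in PU.1-/-, while the sum itself was 127 and 88.8 FPKM. These shares are of mRNA, and receptor protein was not measured in these libraries.

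**Figure D2:**
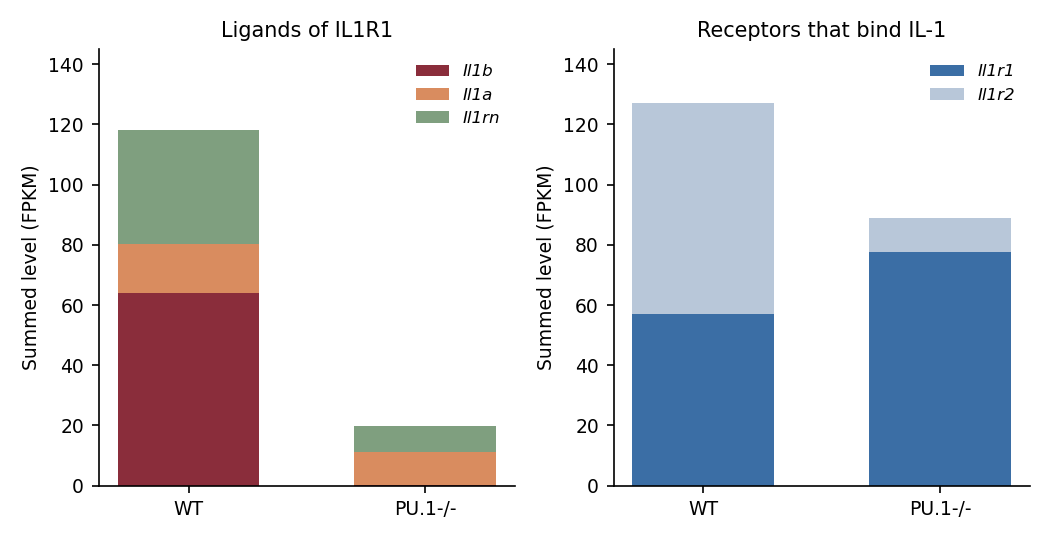
Summed FPKM of the ligands of the type 1 receptor (left) and of the receptors that bind IL-1 (right), by gene, in 1 library per genotype. The Il1b part is not visible in the PU.1-/- bar at 0.169 FPKM, and the Il1r2 part is 70.1 FPKM in WT against 11.03 in PU.1-/-.

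Il1r2 and Il1r1 are neighbours on chromosome 1, as Il1a and Il1b are on chromosome 2, and they too had unlike ratios. Windows upstream of a transcript start of each are shown in the same way, at chr1:40085843-40086092 for Il1r2 and at chr1:40224830-40225079 for the more upstream of the 2 Il1r1 transcript starts that were listed, both on the plus strand. These starts lie 1401 bases (Il1r2) and 2600 bases (Il1r1) into the gene spans given above, and both windows lie wholly within the spans. Capitals again mark GGAA on either strand, with 3 copies in each window.
Il1r2: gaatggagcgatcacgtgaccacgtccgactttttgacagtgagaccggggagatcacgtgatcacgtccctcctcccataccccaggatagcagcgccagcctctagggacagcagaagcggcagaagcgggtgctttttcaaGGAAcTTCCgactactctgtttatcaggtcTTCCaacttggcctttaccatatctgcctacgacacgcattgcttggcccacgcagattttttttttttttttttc
Il1r1: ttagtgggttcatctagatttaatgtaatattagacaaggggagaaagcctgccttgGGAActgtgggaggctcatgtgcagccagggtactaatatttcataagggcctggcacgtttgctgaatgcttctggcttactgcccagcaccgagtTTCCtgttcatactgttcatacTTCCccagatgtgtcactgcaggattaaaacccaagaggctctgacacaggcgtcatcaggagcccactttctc

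In WT the levels followed the order Il1rl1, Il33, Il1r2, Il1b, Il1r1, Il1rn, Il18, Il1a and Il1rap. Counting intervals overlapped between Il1r2 and Il1b, between Il18 and Il1a, and between Il1a and Il1rap, so these neighbours were not separated even by counting error. In PU.1-/- the order was Il1rl1, Il1r1, Il33, Il18, Il1rap, Il1a, Il1r2, Il1rn and Il1b. There the intervals of Il1rap and Il1a, of Il1a and Il1r2, and of Il1r2 and Il1rn overlapped. Il1b went from the fourth place to the last, and Il1r1 from the fifth to the second.

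Of the genes with values, Il18, Il33, Il1rap, Il18bp and Sigirr lie apart, and the others fall into 3 groups along chromosomes 1 and 2. In the receptor cluster of chromosome 1, which spans 467 kb, Il1r2 and Il18rap at its ends were lower, and Il1r1, Il1rl2, Il1rl1 and Il18r1 between them had log2 ratios from −0.23 to 0.45. Il1rn is the last gene of a cluster of 198 kb on chromosome 2 that also holds the IL-36 genes. The 5 other genes of that cluster had log2 ratios from −0.67 to 0.07, against −2.15 for Il1rn. The gap was widest in the third group, where Il1a had −0.55 and Il1b −8.56.

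**Figure D3:**
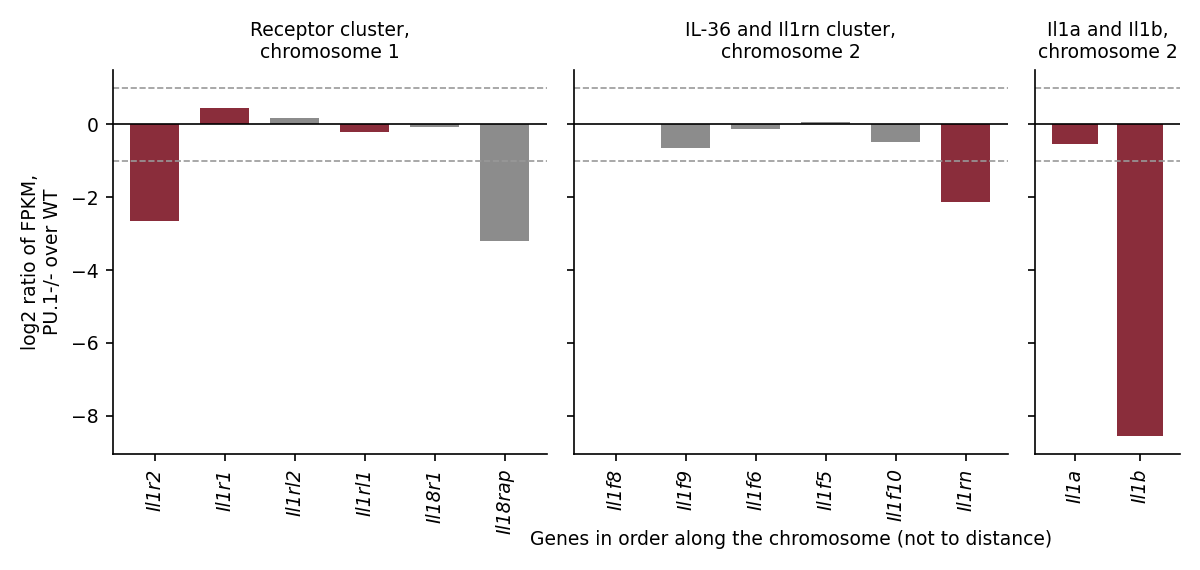
The log2 ratio of FPKM (PU.1-/- over WT) of the genes in 3 chromosomal groups, in their order along the chromosome and not to distance, with the 9 chosen genes in red and dashed lines at a ratio of 2. Il1r2, Il18rap, Il1rn and Il1b lie below the lower dashed line, next to genes that lie between the lines.

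Of the 12 other genes of the family, 2 were at least 2-fold lower and none was higher, beside 4.34% lower and 2.32% higher of all listed genes. Both lower family genes belong to IL-18 signalling and were below 5 FPKM in both libraries. Il18rap, the accessory chain of the IL-18 receptor, had 4.20 FPKM in WT against 0.455 in PU.1-/-, a ratio of 9.22 (interval 6.44 to 13.6) from 273 and 34 reads. Il18bp, a secreted protein that neutralises IL-18, had 1.88 FPKM in WT against 0.422 in PU.1-/-, a ratio of 4.45 (interval 2.001 to 11.2) from 31 and 8 reads. The ligand-binding chain Il18r1 was near the limit of detection, at 0.623 and 0.585 FPKM. IL-18 itself thus showed no detectable difference while its accessory receptor chain and its binding protein were lower.

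The IL-36 genes, epidermal cytokines that signal through Il1rl2 and Il1rap, were abundant in both wounds. The agonist genes Il1f6 (IL-36 alpha) and Il1f8 (IL-36 beta) had 25.4 and 44.8 FPKM in WT and 22.9 and 45.4 FPKM in PU.1-/-. Il1f9 (IL-36 gamma) had 87.6 FPKM in WT against 55.2 in PU.1-/-, a ratio of 1.59 (interval 1.48 to 1.71). The antagonist Il1f5 had 90.5 and 95.1 FPKM, and the receptor Il1rl2 had 41.1 and 46.5 FPKM. For the IL-36 antagonist gene the WT over PU.1-/- ratio was 0.952 (interval 0.889 to 1.02), a range that lies apart from the interval of the IL-1 antagonist Il1rn. Il1f10, which encodes IL-38, had 3.78 and 2.71 FPKM from 17 and 14 reads, and Sigirr, an inhibitory receptor, had 1.46 and 0.917 FPKM. The nervous system receptors Il1rapl1 and Il1rapl2 were listed at 0 in both libraries.

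**Figure D4:**
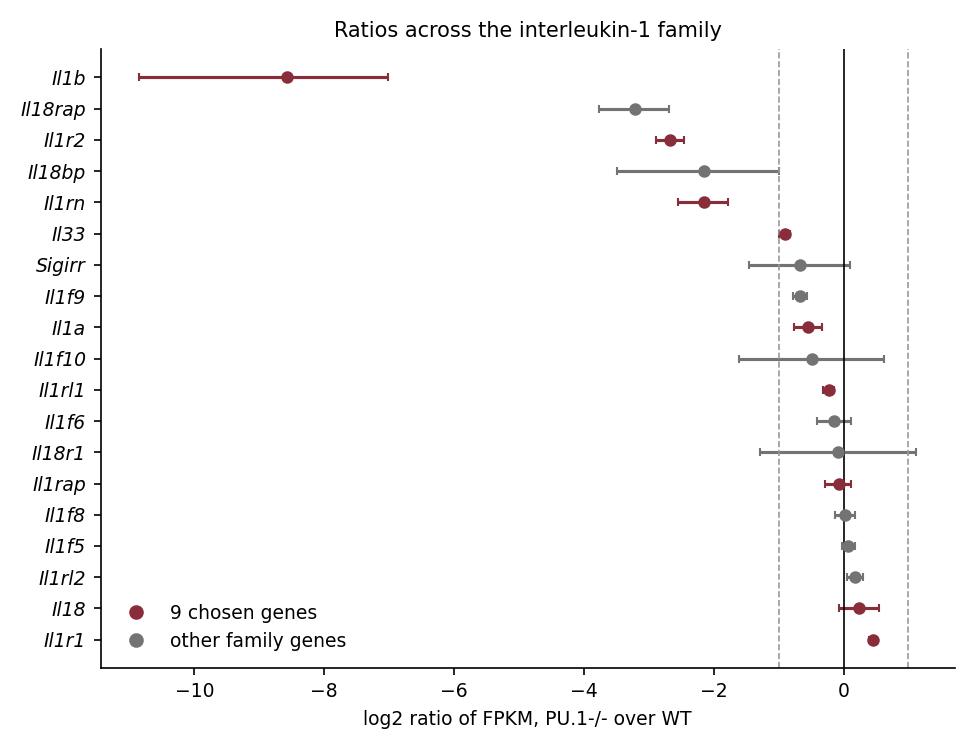
The log2 ratio of FPKM (PU.1-/- over WT) with its 95% counting interval for the 9 chosen genes (red) and the 10 other family genes with a value above 0 (grey), with dashed lines at a ratio of 2. Il1b, Il18rap, Il1r2, Il18bp and Il1rn lie left of the lower dashed line, and none lies right of the upper one.

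The 20 genes of the signalling chain below the receptor, from the adaptor Myd88 to the NF-kB subunits, all stayed within a ratio of 2. Most of all listed genes did so too, as 4.34% were lower and 2.32% higher. The median log2 ratio of the 20 genes was −0.02 and they summed to 585 FPKM in WT against 580 in PU.1-/-. The kinase gene Irak2 differed most among those with at least 5 FPKM, at 6.13 FPKM in WT against 3.77 in PU.1-/-, a ratio of 1.63. Irak3, which encodes an inhibitory member of the same family, had 27.9 and 23.9 FPKM. The ubiquitin ligase genes Peli1 and Peli2 had 18.03 and 8.46 FPKM in WT and 20.8 and 9.89 FPKM in PU.1-/-. Their low relative Peli3, at 0.668 and 1.31 FPKM, came closest to the threshold, with a PU.1-/- over WT ratio of 1.96.

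Of the 16 genes for the cleavage and release of the cytokines, 10 were lower and 1 was higher, with a median log2 ratio of −1.55. The shares over all listed genes were 4.34% lower and 2.32% higher. The counts of the 16 genes rest largely on low genes, since only 7 of the 16 reached 5 FPKM in either library. Of these 7 genes, 3 were lower and 0 higher. The counts over all 16 genes were 4 and 0 with a pseudocount of 1 FPKM, and 5 and 0 with FPKM below 1 raised to 1. Among the 10, Ctsg (5 and 1 reads) and Gzmb (4 and 1 reads) had intervals that include a ratio of 1, and Cma1, Mcpt4 and Elane are also on the mast cell or neutrophil marker lists. The chymases Cma1 and Mcpt4, proteases of mast cells that can process IL-1 family precursors, had 223 and 80.5 FPKM in WT, against 0.436 FPKM and a value listed at 0 in PU.1-/-. Gsdmd, the pore-forming protein through which mature IL-1 beta leaves the cell, had 6.35 FPKM in WT against 2.73 in PU.1-/-, a ratio of 2.33. The inflammasome adaptor Pycard, at 17.4 and 8.77 FPKM, was just under the threshold with a ratio of 1.99. The inflammasome sensor Nlrp3 had 4.97 FPKM in WT against 0.0493 in PU.1-/-, which is about 3 reads. Casp1, the protease that cleaves the IL-1 beta and IL-18 precursors, had 2.33 and 1.25 FPKM. The gene that was higher was Casp4, at 0.702 and 1.78 FPKM and about 12 and 35 reads. The calpains Capn1 and Capn2, proteases of the kind that cleaves the IL-1 alpha precursor, had PU.1-/- over WT ratios of 1.15 and 0.890.

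Of 24 genes that IL-1 is known to induce in fibroblasts, keratinocytes or endothelium, 3 were lower and 1 was higher, with a median log2 ratio of −0.28. Over all listed genes, 4.34% were lower and 2.32% higher, and among those that reached 10 FPKM in either library 2.88% and 0.882%. The lower genes were the neutrophil attractant Cxcl2 (180 FPKM in WT against 48.4 in PU.1-/-), the monocyte attractant Ccl7 (164 and 70.3 FPKM) and the acute-phase gene Saa3 (2318 and 1059 FPKM). Other members of the list stayed abundant in PU.1-/-, such as the cytokine Il6, with 70.3 and 50.4 FPKM, and the neutrophil attractants Cxcl1, with 187 and 208 FPKM, and Cxcl5, with 322 and 291 FPKM. Ccl2 (444 and 269 FPKM) and Lcn2 (1125 and 779 FPKM) were abundant in both libraries too, with WT over PU.1-/- ratios of 1.65 and 1.44. The adhesion molecules Sele and Icam1 had PU.1-/- over WT ratios of 1.88 and 1.87, and the cytokine Lif, the higher gene, had 1.68 FPKM in WT against 4.42 in PU.1-/-. The other 20 genes of the list stayed within a ratio of 2. These genes also respond to other signals, and IL-1 activity was not measured.

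**Figure D5:**
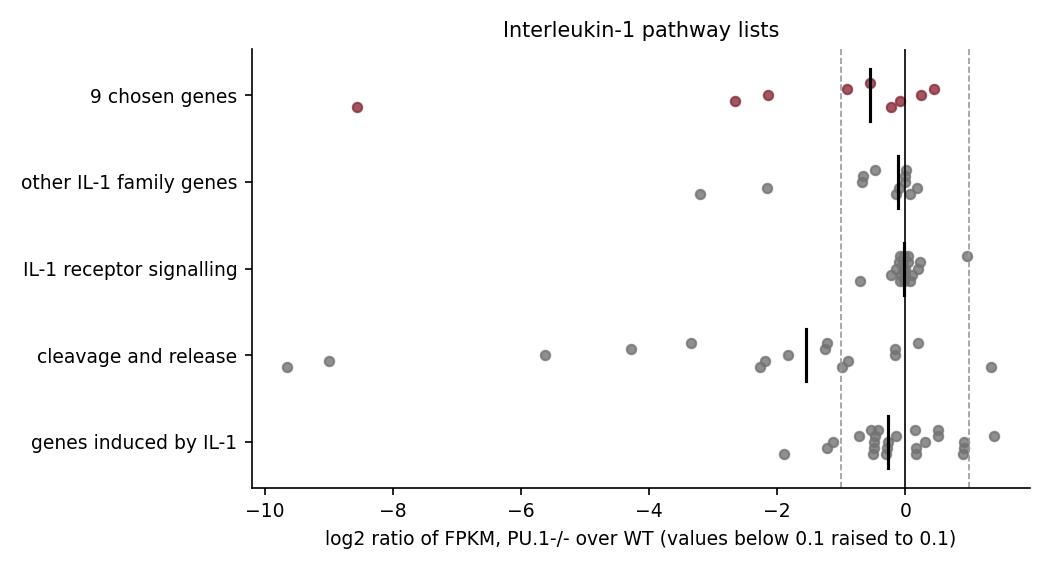
Each point is the log2 ratio of FPKM (PU.1-/- over WT) of 1 gene of the 9 chosen genes or of 4 lists, with black bars at the medians and dashed lines at a ratio of 2. Genes listed at 0 in both libraries are drawn at 0. The signalling list gathers around its median of −0.02, while the cleavage and release list reaches from −9.65 to 1.34.

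The genes nearest to the 3 lower members in level and ratio, by the distance of log2(FPKM + 0.1) in the 2 libraries, were found over all listed genes. Nearest to Il1b were Ppbp (72.0 FPKM in WT against 0.217 in PU.1-/-), Cd52 (54.3 and 0.217 FPKM) and Chil3 (69.6 and 0.0945 FPKM). Nearest to Il1r2 were Slfn2 (68.2 and 11.8 FPKM), Dab2 (58.3 and 10.6 FPKM) and Adam8 (54.1 and 10.8 FPKM). Nearest to Il1rn were Pla2g7 (36.9 and 10.3 FPKM), Adig (27.4 and 8.25 FPKM) and Emilin2 (37.5 and 12.04 FPKM). With 2 libraries, likeness of this kind says only that the pair of values is similar.

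Markers of the blood cells that the mutant is described to lack moved in the same direction as Il1b, Il1r2 and Il1rn. All 10 macrophage markers were lower, and Adgre1, C1qa, C1qc, C1qb and Tyrobp were listed at 0, the last 2 with 123 and 196 FPKM in WT. All 10 mast cell markers were lower, among them Tpsb2 with 224 FPKM in WT against 0.788 in PU.1-/-, and Mcpt4, Tpsab1, Fcer1a, Ms4a2 and Mrgprb2 were at 0. Ms4a2 had only 3 reads in WT, and its interval includes a ratio of 1. Hdc and Gata2 were still measured at 6.91 and 1.34 FPKM in PU.1-/-, against 50.0 and 5.06 FPKM in WT. Of 11 neutrophil markers listed, 9 were lower, and Ngp, Ltf, Retnlg, Mmp8 and Csf3r were at 0. Camp and Cxcr2 were still measured at 23.9 and 7.17 FPKM in PU.1-/-, against 77.6 and 11.2 FPKM in WT. S100a8 and S100a9, which keratinocytes also express, made up most of the neutrophil sum in PU.1-/-, at 2129 and 1516 FPKM against 6600 and 5311 FPKM in WT. The T cell markers were low in both libraries, with 5 of 8 lower and sums of 4.78 and 1.20 FPKM. Among the 5, Cd247 (10 and 4 reads) and Cd2 (3 and 0 reads) had intervals that include a ratio of 1. Lck, the highest of the 8 in WT, was within a ratio of 2, at 1.43 and 1.11 FPKM. Over all listed genes, 4.34% were lower. Of 10 dendritic and Langerhans cell markers, 3 were lower, and 2 of the 3 that reached 5 FPKM in either library. Apart from Epcam, with 62.9 FPKM in WT and 73.7 in PU.1-/-, the markers that were not lower had at most 0.298 FPKM in either library. Cd207 was listed at 0 in both libraries, and which cells supplied the Epcam mRNA was not tested.

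None of the 10 fibroblast markers (sums of 3103 and 3663 FPKM) and none of the 10 keratinocyte markers (11477 and 13066 FPKM) reached a ratio of 2. Col3a1 had 1042 and 1110 FPKM, and Krt14 had 4659 and 5195 FPKM. Of 8 endothelial markers 1 was higher (sums of 179 and 211 FPKM), and of 8 skeletal muscle markers 2 were higher (8457 and 14362 FPKM). All 8 muscle markers had PU.1-/- over WT ratios between 1.56 and 2.05, with a median log2 ratio of 0.71. Whether the 2 wounds held different amounts of muscle, and how this bears on other ratios, was not tested. It was not tested which cells supplied the 11.03 FPKM of Il1r2 and the 8.54 FPKM of Il1rn that were measured where macrophage markers were near 0.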

How the data were processed

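Bulk mRNA libraries of WT and PU.1-/- skin wounds, 1 per genotype, were prepared with a kit that keeps the strand and sequenced from one end. The authors mapped the reads to mouse mm10 and deposited FPKM values calculated with Cuffnorm, a program of the Cufflinks suite. The submitters' processing notes name TopHat2 2.1.1, Bowtie2 2.2.8, SAMtools 0.1.18 and Cuffdiff 2.2.1, and the annotation is not given in the sources used here. Division of reads between overlapping genes or between transcripts by these programs can change single values.

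All calculations started from the deposited FPKM, whose sums were 709528 in WT and 687304 in PU.1-/-. Among genes below 1 FPKM in WT, 429 of 3365 had the same value of WT divided by PU.1-/-, 1.15, that of equal read numbers. In 559 genes with 1 GENCODE transcript, the smallest whole read numbers that give a gene's ratio (tolerance 1e-05), its length less 200 nt and its FPKM gave the depth. The estimates of 59.4% of them lay within 2% of the stated depth divided by a whole number up to 10. Reads were then estimated with the shortest coding transcript linked to RefSeq, or taken as whole reads where few, so that intervals tend to be wide for genes with several transcripts.

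No test across animals was possible. The functions were tested on simulated libraries. Gene spans and the windows upstream of listed transcript starts are those of RefSeq on GRCm38, and many of these starts lie inside the spans. Protein sequences and a test of their identity were planned and are not used here. The 9 genes, the lists and the thresholds were chosen with earlier results of these data known. Named genes were the members, Spi1, the other family genes, the 4 widest ratios per list among genes of at least 5 FPKM, any higher gene among these, the 3 nearest genes of each lower member and the 2 markers per list with the highest level in WT, not all of which are printed. Nlrp3, Casp1, Ctsg, Gzmb, Elane, Casp4, Capn1, Capn2, Lif, Peli3, Il6, Cxcl1, Cxcl5, Icam1, Camp, Cxcr2, the markers at 0, and the core GGAA were chosen after their values were seen. So were Ccl2, Lcn2, Hdc, Gata2 and Cd247. Alternatives of low values, scaling, threshold and filter were run. Analyses used scipy 1.17.1 and numpy 2.4.6 for intervals, pandas 2.3.3 for tables and matplotlib 3.10.9 for plots, in Python 3.11.15.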

Additional observations from a re-analysis of the deposited data

How the results depend on the processing

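Il1b, Il1r2 and Il1rn were called lower under all 10 alternatives of low values, scaling, threshold and filter. None of the 9 genes was called higher under any. A threshold of 1.5 and the filters of 1 and 5 FPKM could not remove these 3 genes, which all reached 10 FPKM. Il33 joined them at a threshold of 1.5 and where both libraries were scaled to equal fibroblast and keratinocyte markers (ratio 2.15), which gave 4 lower genes and shifted the median log2 ratio of all genes of at least 10 FPKM in both libraries to −0.20. Of 54 recalculated log2 ratios of members, 49 stayed within the counting interval and none changed sign. Il1b was at −5.80 with a pseudocount of 1 FPKM and at −6.00 with FPKM below 1 raised to 1, by construction. With that pseudocount, Il1rn over Il1b in PU.1-/- was 8.16 and Il1a over Il1b was 10.4.

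Low genes set many of the counts of the other family and cleavage lists, and the 1 higher induced gene was below 5 FPKM. The 3 lower induced genes, in contrast, remained under each change of low values or filter. As all 3 were above 5 FPKM, the filters could not remove them. The signalling list likewise kept 0 lower and 0 higher genes under these changes. With FPKM below 1 raised to 1, the other family genes had 1 lower gene and the cleavage list 5 lower and 0 higher. With a pseudocount of 1 FPKM the cleavage list had 4 lower and 0 higher. At least 5 FPKM left 0 lower of 5 family genes, 3 lower and 0 higher of 7 cleavage genes, and 0 higher of 20 induced genes. At a threshold of 1.5, 4 family genes and 1 signalling gene were lower, and 1 signalling gene and 4 induced genes were higher. At a threshold of 3, 1 induced gene was lower and 0 induced and 0 cleavage genes were higher. Equal FPKM sums gave 1 higher signalling gene. No paired analysis was possible because there is 1 library per genotype, and none could be left out.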
